A study of Mus musculus with 6 samples.

Results

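Pnkd, Rmdn1 and Numa1 were the 3 genes with a probe set called higher and another called lower in the mouse uterus 6 h after progesterone. A probe set is a group of short DNA probes on an Affymetrix array that together measure a stretch of transcript, and many genes have several. The members were chosen by the calls themselves: a gene entered when at least 1 of its probe sets was called higher and at least 1 was called lower with progesterone (limma, Benjamini-Hochberg adjusted p under 0.05 over 45037 probe sets). Of 18193 genes with a probe set of their own, 9010 had several, 572 had several that were called, and these 3 were called in both directions. Changes with progesterone therefore describe the choice of these genes and are given without a test. Membership depended on the fit and the threshold. At an adjusted p under 0.01 limma called 0 genes in both directions, and with the replicate number as a block 6, without Numa1.

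RNA came from the uterine horn of female mice, 8 weeks old and of mixed background, that carried the floxed Gata2 allele (Gata2 f/f). The labels name no recombinase. All mice had been ovariectomized at 6 weeks of age, so that little ovarian steroid reached the uterus. The progesterone group (3 arrays) received 1 mg of progesterone in 100 µl of sesame oil and the oil group (3 arrays) received sesame oil, and tissue was taken 6 h later. RNA was described as pooled from 3 mice, and whether each array held its own pool was not stated, so errors and p-values cover the spread between arrays, which may be technical. The comparison addressed which transcripts of the uterus respond early to progesterone.

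A single gene can give rise to several transcripts, through alternative starts, alternative splicing and alternative polyadenylation. Probe sets placed in different exons or 3' ends of a gene then need not move together, and a probe set can also detect transcripts of another gene. Pnkd encodes a protein with the metallo-beta-lactamase fold of glyoxalase II enzymes, is mutated in a human movement disorder, paroxysmal nonkinesigenic dyskinesia, and is known to produce a long form found mainly in brain beside shorter forms found more widely. Rmdn1 encodes a member of the regulator of microtubule dynamics family, which was described in Caenorhabditis elegans, where its founding member acts in chromosome segregation. Numa1 encodes NuMA, a large coiled-coil protein of the nucleus that at mitosis moves to the spindle poles and the cell cortex, where it binds dynein and the LGN protein (gene Gpsm2) and helps to focus and orient the spindle.

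RefSeq lists several transcripts for each member: 4 for Pnkd (3 curated mRNAs and 1 predicted mRNA), 2 for Rmdn1 (1 curated mRNA and 1 noncoding RNA) and 12 for Numa1 (1 curated and 11 predicted mRNAs). The RefSeq promoter table held a start for Pnkd and for Numa1, both on the forward strand and each lying inside the annotated span of its gene, so other transcripts of these genes begin further upstream. These windows are shown because they mark a start that only part of the listed transcripts can share. They run from 250 bases before to 50 bases after the start in GRCm38.p6, and capitals mark the 50 bases from the start.
Pnkd, chr1:74332360-74332659, forward strand: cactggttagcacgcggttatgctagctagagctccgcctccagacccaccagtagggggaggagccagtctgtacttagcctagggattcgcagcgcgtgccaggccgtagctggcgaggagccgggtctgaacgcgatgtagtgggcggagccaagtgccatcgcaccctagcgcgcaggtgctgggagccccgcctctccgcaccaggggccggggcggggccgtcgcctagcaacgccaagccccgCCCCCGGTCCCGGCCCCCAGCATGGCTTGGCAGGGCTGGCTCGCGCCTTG
Numa1, chr7:101969593-101969892, forward strand: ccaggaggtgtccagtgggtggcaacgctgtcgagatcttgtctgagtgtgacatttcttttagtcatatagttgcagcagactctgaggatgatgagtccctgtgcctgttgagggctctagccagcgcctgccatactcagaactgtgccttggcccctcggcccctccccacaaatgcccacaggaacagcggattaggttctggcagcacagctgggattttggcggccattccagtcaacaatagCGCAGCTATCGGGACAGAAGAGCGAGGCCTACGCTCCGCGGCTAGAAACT
The Pnkd window is rich in G and C (70.0%, with 27 CG pairs), against 56.3% and 12 CG pairs in the Numa1 window and medians of 52.7% and 7 over 32851 such windows. The GC box GGGCGG, searched on both strands, occurred 3 times in the Pnkd window and 0 times in the Numa1 window, and 35.7% of all windows held it. Neither window held the progesterone and glucocorticoid receptor element, searched as GNACA and TGTNC with any 3 bases between them (0.475% of windows), the GATA letters AGATAA (11.2%) or TGATAA (9.05%), or the TATA box TATAAA (13.6%), each searched on both strands. A match or its lack is a property of these letters only.

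The 3 genes had 11 probe sets of their own: 2 for Pnkd, 6 for Rmdn1 and 3 for Numa1. Of these 3 were higher, 4 were lower and 4 were not called. Over all probe sets of the array, 7.77% were called, 4.01% as higher and 3.76% as lower. In the 7 called probe sets, and in 0 of the other 4, the progesterone and oil arrays did not overlap, as was the case for 25.6% of all probe sets. By the name that the manufacturer gives it, 1 of the 11, the Numa1 probe set ending in _s_at, has probes that match several transcripts, of 1 gene or of more, and the other 10 have the plain ending _at. None of the 3 genes was named together with another gene on any further probe set. An accession was given for the source sequence of 10 probe sets, and that of Pnkd probe set 1418746_at is itself 1 of the 3 curated Pnkd mRNAs. Probe sequences were not used here, so which transcript each probe set detects was not determined. Levels below are the deposited log2 values of the RMA method. They are not comparable between probe sets, whose probes differ in affinity, and are compared between arrays only.

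The arrays were alike in scale and differed in markers of some cell types. Array medians were nearly equal. Markers of uterine epithelium, stroma and smooth muscle had array medians between 10.06 and 12.0 in both groups, so the defining markers of the labelled tissue were present. Over all 18193 genes, 5.21% were higher and 5.0% lower. Of 8 stroma markers 3 were higher with progesterone, Hoxa10 and Hoxa11 among them, and 0 were lower (4 and 1 at an unadjusted p under 0.05 in limma). Their median log2 change was 0.49, but Vim (-0.53, limma adjusted p = 0.42) and Dcn (-0.33, adjusted p = 0.188) had changes below 0, and Pdgfra was unchanged (adjusted p = 0.992). Of 8 epithelium markers 1 was higher, Cldn3, and 0 were lower (1 and 2 at an unadjusted p under 0.05 in limma). Their median log2 change was -0.34, and 6 of the 8 had a change below 0, the largest of them Krt18 (-0.76, limma adjusted p = 0.0652) and Elf3 (-0.72, adjusted p = 0.141). The 4 measured adipocyte markers had medians of 4.92, 5.84 and 4.12 with progesterone, against 6.48, 6.45 and 5.72 with oil. None of the 4 was called in limma, and at an unadjusted p under 0.05 0 were higher and 3 lower. Their median log2 change was -1.16, with Adipoq at -1.94 (adjusted p = 0.119) and Fabp4 at -1.74 (adjusted p = 0.12). Of 5 skeletal muscle markers 1 was higher, Acta1 (1.58, limma adjusted p = 0.0149), and 0 were lower, with a median log2 change of -0.04. Of 5 liver markers 1 was higher, Ttr (2.61, limma adjusted p = 0.034), and 0 were lower. The median log2 change of the liver markers was -0.83. Alb, Apoa1, Apoa2 and Fgb had changes of -1.67, -0.83, -0.85 and -0.41 and were not called. The liver markers had a median of 6.82 on oil replicate 3 and of 3.99 to 4.29 on the other arrays. The 4 measured markers of proliferating cells, which include Mki67 and Top2a, had medians of 6.76, 7.72 and 8.95 on progesterone replicates 1 to 3, against 6.88, 6.10 and 8.78 on oil replicates 1 to 3, so that replicate 3 was highest in each group. None was called (limma, 0 at an unadjusted p under 0.05). The 5 measured neutrophil markers had medians of 4.19, 9.05 and 7.54 with progesterone, against 4.08, 4.34 and 6.97 with oil. None was called in limma (0 at an unadjusted p under 0.05). S100a8, which had the largest change of them, was at 5.01, 12.02 and 12.48 with progesterone, against 4.92, 4.34 and 11.82 with oil (limma adjusted p = 0.603). The part of these cell types in the values of Pnkd, Rmdn1 and Numa1 was not tested.

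Pnkd showed the widest separation. Probe set 1418746_at was at 8.31, 8.10 and 7.31 on progesterone replicates 1 to 3, against 6.73, 6.63 and 6.25 on oil replicates 1 to 3 (log2). Every progesterone array lay above every oil array, and in each group replicate 3 was the lowest. Its mean was 7.91 ± 0.527 with progesterone and 6.54 ± 0.253 with oil (SD, n = 3 each), a log2 change of 1.37 ± 0.257 (SE) or 2.59-fold, and the adjusted p that chose it was 0.0206 (limma). Probe set 1451399_at was at 9.39, 9.43 and 9.43 on the progesterone arrays, against 9.87, 10.0 and 9.74 on the oil arrays. Here every progesterone array lay below every oil array, and the progesterone arrays stood close together. Its mean was 9.42 ± 0.0231 with progesterone and 9.87 ± 0.13 with oil (SD, n = 3 each), a log2 change of -0.45 ± 0.102 (SE), or 1.37-fold lower (limma adjusted p = 0.0377, also used in the choice). Both probe sets stood well above the TrpnX controls, which have no mouse target and reached 3.34: over the 6 arrays, 69.0% of probe sets had a lower mean than 1418746_at and 92.4% had a lower mean than 1451399_at.

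In bulk tissue, more cells of a type and more RNA per cell cannot be told apart, which holds for each value here. The neuron markers, relevant because the long form of Pnkd is a brain transcript, had array medians of 3.65, 3.45 and 3.8 with progesterone and 3.79, 3.52 and 3.58 with oil, close to the TrpnX controls. Of the 7 neuron markers 1 was higher and 0 were lower (1 and 0 at an unadjusted p under 0.05 in limma). The higher one was Syt1, a calcium sensor of vesicle release, at 6.75, 6.54 and 6.04 with progesterone, against 5.80, 5.66 and 5.41 with oil (limma adjusted p = 0.0429). This call held in 1 of the 6 fits that left out an array (up to 0.137), and the 3 other Syt1 probe sets were not called (log2 changes from -0.3 to 0.19). In each group Syt1, like Pnkd 1418746_at, was lowest on replicate 3. The part of neuronal transcripts in the Pnkd values was not tested.

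**Figure D1:**
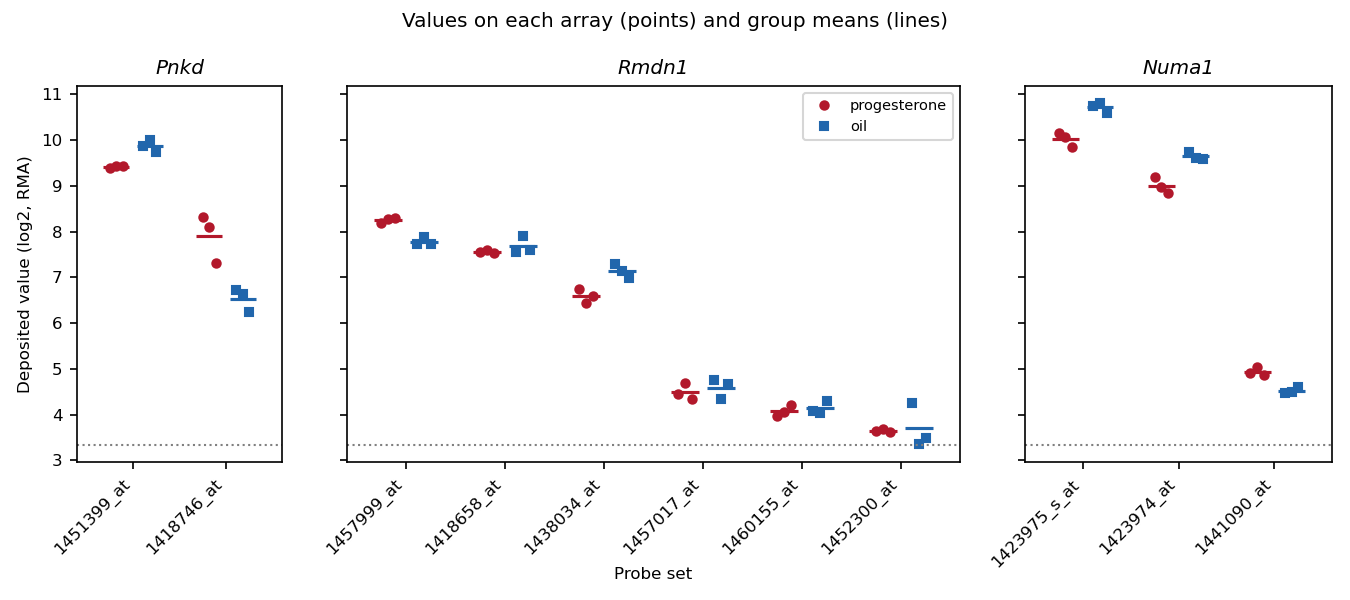
Deposited log2 values of the 11 probe sets of Pnkd, Rmdn1 and Numa1 on each array, with progesterone (circles) left of oil (squares), lines at the group means and a dotted line at the highest TrpnX control (3.34). In the 7 called probe sets the groups do not overlap, and in the 4 others, all of Rmdn1, they do.

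Rmdn1 had the most probe sets, and its opposed ones changed by similar amounts. Probe set 1457999_at was at 8.20, 8.28 and 8.30 on progesterone replicates 1 to 3, against 7.73, 7.88 and 7.74 on oil replicates 1 to 3 (log2). Its mean was 8.26 ± 0.0529 with progesterone and 7.78 ± 0.0839 with oil (SD, n = 3 each), a log2 change of 0.48 ± 0.0956 (SE), or 1.39-fold (limma adjusted p = 0.0254, used in the choice). Probe set 1438034_at was at 6.75, 6.45 and 6.59 with progesterone, against 7.30, 7.13 and 6.98 with oil, and again the groups did not overlap. Its mean was 6.6 ± 0.15 with progesterone and 7.14 ± 0.16 with oil (SD, n = 3 each), a log2 change of -0.54 ± 0.125 (SE), or 1.45-fold lower (limma adjusted p = 0.0415, used in the choice).

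The other 4 Rmdn1 probe sets were not called (limma adjusted p from 0.652 to 0.932). Probe set 1418658_at was at 7.55, 7.60 and 7.54 with progesterone, against 7.56, 7.90 and 7.59 with oil, with a log2 change of -0.12 ± 0.117 (SE). The spread between the oil arrays (SD 0.188) was larger than this change. Probe sets 1457017_at, 1460155_at and 1452300_at had means over the 6 arrays of 4.54, 4.11 and 3.68, within the lower part of the array, where 38.8%, 32.1% and 22.5% of probe sets had lower means. Their log2 changes lay between -0.09 and -0.06, and the groups overlapped in each. Probe set 1452300_at was at 3.64, 3.68 and 3.62 with progesterone, against 4.26, 3.36 and 3.49 with oil, so that the single array oil replicate 1 made its spread.

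Numa1 had 2 probe sets that were lower and 1 that was higher. Probe set 1423975_s_at was at 10.16, 10.07 and 9.85 on progesterone replicates 1 to 3, against 10.75, 10.81 and 10.59 on oil replicates 1 to 3 (log2). Its mean was 10.03 ± 0.16 with progesterone and 10.72 ± 0.114 with oil (SD, n = 3 each), a log2 change of -0.69 ± 0.118 (SE), or 1.61-fold lower (limma adjusted p = 0.0152, used in the choice). Probe set 1423974_at, made from the same source sequence, was at 9.19, 8.98 and 8.85 with progesterone, against 9.74, 9.61 and 9.58 with oil. Again the groups did not overlap. Its mean was 9.01 ± 0.172 with progesterone and 9.64 ± 0.0851 with oil (SD, n = 3 each), a log2 change of -0.64 ± 0.117 (SE), or 1.56-fold lower (limma adjusted p = 0.0194, used in the choice). These probe sets share their source, so they are not independent readings of Numa1.

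Probe set 1441090_at of Numa1, from another source sequence, was at 4.91, 5.05 and 4.87 with progesterone, against 4.48, 4.49 and 4.61 with oil. The groups did not overlap, but the level was low, and 41.1% of probe sets had a lower mean. Its mean was 4.94 ± 0.0945 with progesterone and 4.53 ± 0.0723 with oil (SD, n = 3 each), a log2 change of 0.42 ± 0.0994 (SE), or 1.34-fold, with the largest limma adjusted p among the 7 called probe sets (0.0451, used in the choice). With an offset of 32 before log2 this change was 0.19. With the replicate number as a block the adjusted p of this probe set was 0.051, and with a trended and robust fit it was 0.0741, so that Numa1 was then called in 1 direction only.

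**Figure D2:**
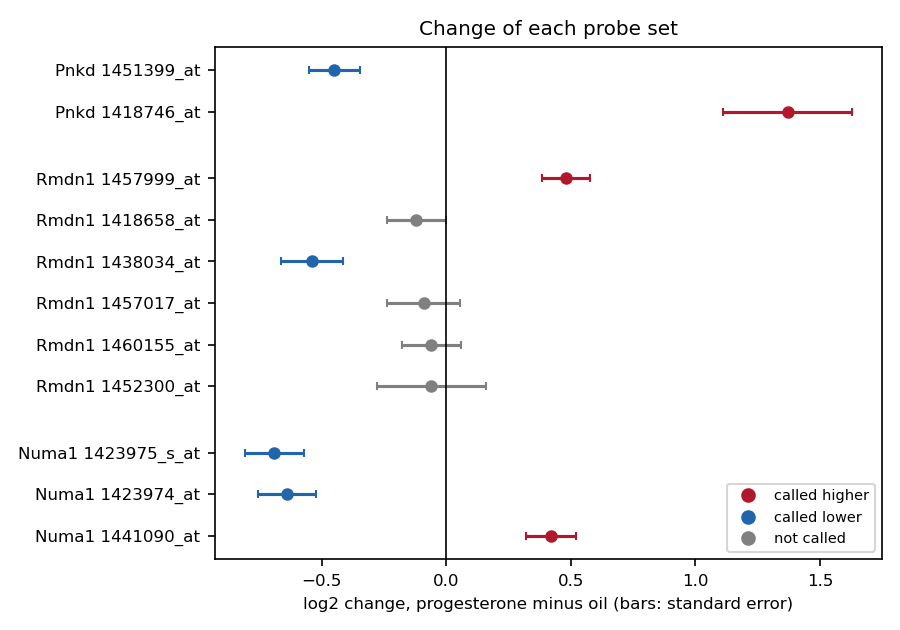
Log2 change of each probe set, progesterone minus oil, with its standard error as the bar. The largest change is that of Pnkd 1418746_at (1.37), and each gene has probe sets on opposite sides of 0, as its choice requires.

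The distance between opposed probe sets was also taken on each array, as the value of the probe set that was higher minus that of the one that was lower (for Numa1, the brighter of the lower pair). The choice of genes fixes the direction of the shift and favours a large shift relative to the spread, so these values are a description. For Pnkd the distance was -1.08, -1.33 and -2.12 on progesterone replicates 1 to 3, against -3.14, -3.37 and -3.49 on oil replicates 1 to 3 (log2), a shift of 1.82. Progesterone replicate 3 lay closest to the oil arrays, and the SD was 0.543 with progesterone and 0.178 with oil. For Rmdn1 it was 1.45, 1.83 and 1.71 with progesterone, against 0.43, 0.75 and 0.76 with oil, a shift of 1.02 with SDs of 0.194 and 0.188. For Numa1 it was -5.25, -5.02 and -4.98 with progesterone, against -6.27, -6.32 and -5.98 with oil, a shift of 1.11 with SDs of 0.146 and 0.184. Without any 1 array the shift was between 1.61 and 2.13 for Pnkd, 0.908 and 1.12 for Rmdn1, and 1.04 and 1.21 for Numa1. The lower Numa1 probe sets and Pnkd 1418746_at had their lowest value in each group on replicate 3, the arrays on which the markers of proliferating cells were highest. Without both arrays numbered 3 the distance between opposed probe sets shifted by 2.05 for Pnkd, 1.05 for Rmdn1 and 1.16 for Numa1.

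**Figure D3:**
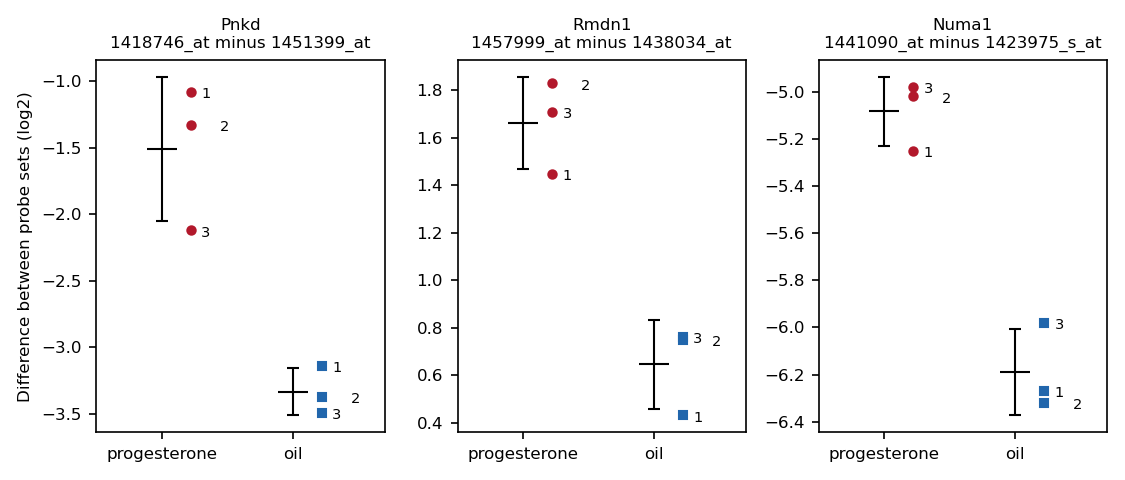
Distance between the opposed probe sets on each array (log2), progesterone left of oil, with replicate numbers beside the points and the mean ± SD as bars. The groups lie apart in each gene, by 1.82 for Pnkd, 1.02 for Rmdn1 and 1.11 for Numa1, and progesterone replicate 3 lies nearest to the oil arrays for Pnkd.

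Within groups the opposed probe sets of a gene showed no common pattern. Over the 6 arrays, after each group's mean was taken off, the deviations of the lower Numa1 pair correlated at 0.788, and those of 1441090_at with the brighter of that pair at -0.051. The opposed probe sets correlated at 0.215 for Pnkd and at -0.344 for Rmdn1. Rmdn1 1457999_at correlated with the uncalled 1418658_at at 0.849, and with the uncalled 1457017_at, 1460155_at and 1452300_at at -0.631, -0.082 and -0.555. These are descriptions over 6 arrays that share their RNA between probe sets.

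Among the 572 genes with several called probe sets, 0.524% were called in both directions. In the other 569 the called probe sets agreed in direction. Over the 9010 genes with several probe sets, called or not, the range of log2 change among the probe sets of a gene had a median of 0.21, against 1.82 for Pnkd, 1.02 for Rmdn1 and 1.11 for Numa1. Of these genes 99.7%, 98.2% and 98.6% had a smaller range than Pnkd, Rmdn1 and Numa1, which follows from the choice. Just inside the rule stood Numa1, at an adjusted p of 0.0451 for its weaker direction, Rmdn1 (0.0415) and Pnkd (0.0377). Just outside stood Dcun1d5, a cofactor of cullin neddylation (probe sets with log2 changes of 0.43 and -0.52, the lower one at an adjusted p of 0.0587), and the splicing factor Srsf1 (0.56 and -0.54, the higher one at 0.0631). Lztr1, an adaptor of a ubiquitin ligase, followed (0.92 and -0.38, at 0.0526 and 0.0695).

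**Figure D4:**
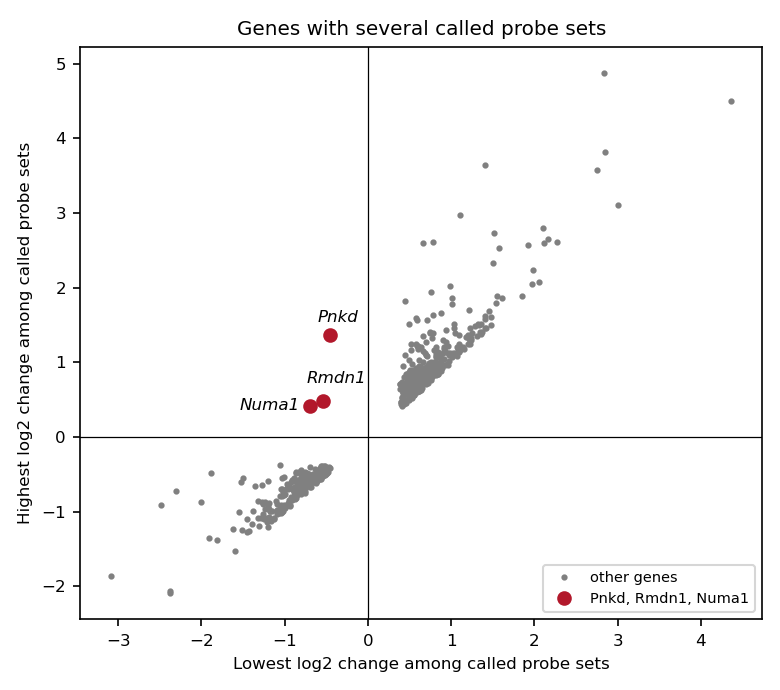
For each of the 572 genes with several called probe sets, the lowest against the highest log2 change among its called probe sets. Pnkd, Rmdn1 and Numa1 are alone in the upper left, where the changes oppose, and the other 569 genes have called probe sets on 1 side only.

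The calls that chose the genes rested on all 6 arrays. In the 6 fits that each left out 1 array, the call of Pnkd 1418746_at held without progesterone replicate 1 or 3 (adjusted p from 0.0069 to 0.0809 over the 6 fits) and that of Pnkd 1451399_at held without oil replicate 3 (0.0473 to 0.132). For Rmdn1, 1457999_at held without progesterone replicate 1 (0.0478 to 0.0922), and 1438034_at held without progesterone replicate 1 or oil replicate 3 (0.0475 to 0.133). For Numa1, 1423975_s_at held in 3 fits, without progesterone replicate 1, progesterone replicate 3 or oil replicate 3 (0.0247 to 0.0695). Its partner 1423974_at held in 2, without progesterone replicate 1 or oil replicate 3 (0.0199 to 0.0746), and 1441090_at in 0 (0.0728 to 0.148). Both directions of a gene were called in 1 of these fits, for Rmdn1 without progesterone replicate 1. None of these 7 called probe sets changed the sign of its log2 change. Of the uncalled Rmdn1 probe sets, 1452300_at had a log2 change of 0.22 without oil replicate 1, against -0.06 with all arrays, and 1460155_at had 0.025 without oil replicate 3, against -0.06.

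**Figure D5:**
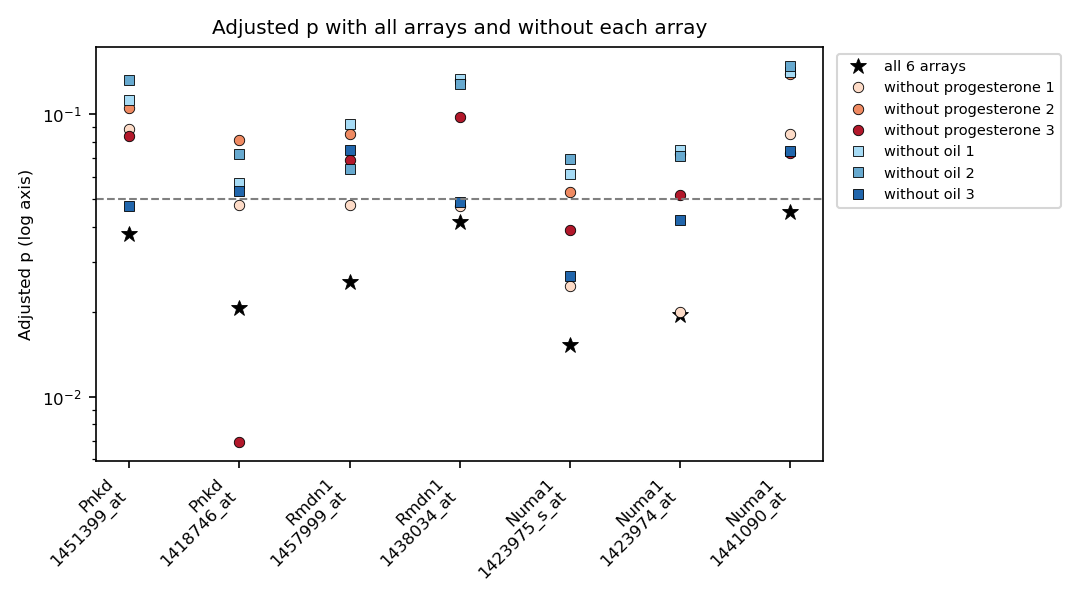
Limma adjusted p (log axis) of the 7 called probe sets with all 6 arrays (stars) and without each progesterone (circles) or oil array (squares), with a dashed line at 0.05. With all arrays they lie between 0.0152 and 0.0451, and most points without 1 array lie above the line.

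RNA quality was read from control probe sets at the 3' and 5' ends of Actb and Gapdh, since probe sets of a gene can lie at different distances from its 3' end. The 3' minus 5' difference of Actb was 1.40, 0.76 and 1.28 with progesterone, against 1.19, 0.99 and 1.07 with oil (log2). That of Gapdh was 0.98, 0.47 and 0.65 with progesterone, against 0.70, 0.49 and 0.45 with oil. The groups overlapped in both, and the mean difference between groups was 0.06 for Actb and 0.15 for Gapdh (two-sided exact permutation p = 0.9 and 0.6, where 3 arrays against 3 cannot give less than 0.1). The positions of the members' probe sets were not determined, and the part of RNA quality in their values was not tested.

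Neighbouring genes were examined because probes near a gene's end can also read a neighbour. By the RefSeq annotation (GRCm38.p6), Pnkd contains the gene Tmbim1, which lies on the opposite strand by the strand of its promoter, and overlaps Aamp at its edge. Tmbim1, a membrane protein of the Bax inhibitor motif family, was at 9.51, 9.26 and 9.24 with progesterone, against 9.44, 9.67 and 9.29 with oil (log2 change -0.13, limma adjusted p = 0.669). Aamp, an angio-associated cell migration protein, had a log2 change of 0.06 (adjusted p = 0.794). Of the 11 genes that overlap or adjoin the members, 6 had probe sets of their own, 11 in number. Of these probe sets 2, both of Wwp1, were higher, 0 were lower and 9 were not called. Over all probe sets of the array, 4.01% were called higher and 3.76% lower.

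Wwp1, to which both higher probe sets of the neighbours belong, encodes an E3 ubiquitin ligase and is the gene next to Rmdn1. Wwp1 probe set 1427097_at was at 8.28, 8.66 and 8.55 with progesterone, against 7.55, 7.39 and 7.79 with oil. Its log2 change was 0.92 ± 0.145 (SE), with a limma adjusted p of 0.0117, and 0.0527 without oil replicate 2. Probe set 1427098_at changed by 0.74 (adjusted p = 0.0192, lost without progesterone replicate 1 or 2 or oil replicate 1 or 2, up to 0.0793), and the third Wwp1 probe set, 1452299_at, by 0.29 (adjusted p = 0.134). On the other side of Rmdn1, the 4 probe sets of Cpne3, a calcium-dependent membrane-binding protein, had log2 changes between -0.07 and -0.02 and none was called (adjusted p from 0.846 to 0.935). Whether any Rmdn1 probe set reads Wwp1 RNA was not tested. The genes beside Numa1, Lrrc51 and the interleukin 18 binding protein gene Il18bp, had log2 changes of -0.51 and 0.36, neither called (adjusted p = 0.218 and 0.489). The pseudogene Gm8523 and the long noncoding RNA gene Gm39061 inside Numa1, and the long noncoding RNA gene Gm52724 inside Rmdn1, had no probe set named for them alone, nor had Gm28364 and Catip, the genes beside Pnkd.

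Genes of families, known partners and processes related to the members or to transcript forms were read from 8 lists. The probe set with the highest mean stood for each gene, and 198 genes were measured. A gene counted as not called can therefore have other probe sets that were called. Of these 12 were higher and 6 were lower, with 180 not called, against 5.21% higher and 5.0% lower over all 18193 genes. After quantile normalization 13 were higher and 10 lower, with an offset of 32 before log2 15 and 11, and with the replicate block 14 and 14. The median log2 change of the 198 was 0.01, against -0.02 over all genes. As a share, 6.06% were higher and 3.03% were lower.

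Both relatives of Rmdn1 were higher. Rmdn2 was at 6.75, 6.70 and 6.07 with progesterone, against 5.57, 5.50 and 5.29 with oil, a log2 change of 1.05 ± 0.189 (SE, limma adjusted p = 0.0178). A further 2 of its 3 other probe sets were called higher too, and the call of 1455063_at was lost without progesterone replicate 2, oil replicate 1 or oil replicate 2 (up to 0.0706). Rmdn3, which tethers the endoplasmic reticulum to mitochondria, was at 8.10, 8.16 and 8.20 with progesterone, against 7.65, 7.70 and 7.77 with oil, a log2 change of 0.45 ± 0.0923 (SE, limma adjusted p = 0.0281). No fit that left out 1 array kept this call (adjusted p from 0.0525 to 0.101), and its other probe set was not called (log2 change 0.37). Of the 18 measured genes of the list of the Rmdn family and contacts between endoplasmic reticulum and mitochondria, 3 were higher and 1 was lower, with a median log2 change of -0.02. The third was the mitochondrial chaperone Hspa9 (0.46, adjusted p = 0.0338), and Osbpl5, a lipid transfer protein, was lower (-0.50, adjusted p = 0.0348). Hspa9 and Osbpl5 were each still called in 1 of the 6 fits that left out an array.

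Around Numa1, 1 of 34 measured NuMA partners and spindle positioning genes was higher and 0 were lower (6 and 5 at an unadjusted p under 0.05 in limma), with a median log2 change of 0.02. It was Nde1, a regulator of dynein, at 8.35, 7.96 and 8.10 with progesterone, against 7.22, 7.08 and 7.02 with oil, a log2 change of 1.03 ± 0.126 (SE, limma adjusted p = 0.00523) that was called in all 6 fits without 1 array. The largest change of the list was that of Kpna2, an importin, at a mean of 9.99 with progesterone and 8.55 with oil, which was not called (1.44 ± 0.433 SE, limma adjusted p = 0.0927). Gpsm2, named here as the known partner of NuMA, had a log2 change of -0.12 (adjusted p = 0.572). Of 16 nuclear lamina and matrix genes 1 was higher and 0 were lower (2 and 2 at an unadjusted p under 0.05 in limma), with a median of -0.01. It was Lmnb2, which encodes lamin B2, with a log2 change of 0.85 ± 0.106 (SE, adjusted p = 0.00562), called in all 6 fits without 1 array, while its other probe set changed by 0.08. Of 23 microtubule dynamics genes 1 was higher, Tacc1 (0.88, adjusted p = 0.00682, called in all 6 fits without 1 array). In the same list 1 was lower, Mtus1 (-0.46, adjusted p = 0.0407, called in 1 of those fits), and the median was -0.05. Map1lc3b, counted there as not called (-0.48, limma adjusted p = 0.0638), had 2 other probe sets that were called lower (-0.65 and -0.723).

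Around Pnkd, 1 of 18 measured metallo-beta-lactamase fold and glyoxalase genes was higher and 2 were lower, with a median log2 change of -0.08. Cpsf2, counted there as not called (0.62, limma adjusted p = 0.0578), had 2 other probe sets that were called higher. Elac2, which trims the 3' ends of transfer RNA precursors, was higher (0.59, adjusted p = 0.0129, lost without oil replicate 2). The phospholipase Napepld, which makes N-acylethanolamines, was lower (-0.97, adjusted p = 0.0239, lost without progesterone replicate 1, progesterone replicate 2 or oil replicate 2). The DNA crosslink repair nuclease Dclre1a was lower as well (-0.59, adjusted p = 0.0194, still called in 2 of the 6 fits with an array left out), and its other 2 probe sets were not called (-0.36 and -0.18). Hagh, glyoxalase II itself, had a log2 change of -0.04 (adjusted p = 0.896). PNKD is known to bind RIM proteins of the presynapse, and of 11 presynaptic release genes 2 were higher and 0 were lower (2 and 1 at an unadjusted p under 0.05 in limma), with a median of 0.11. They were Syt1 and Rims3. Rims3, which encodes a small RIM protein, was at 5.47, 6.85 and 5.32 with progesterone, against 4.34, 4.24 and 4.37 with oil (1.56 ± 0.361 SE, adjusted p = 0.0408). Rims3 was still called in 2 of the 6 fits that left out an array, and its other probe set was not called (0.33).

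Genes that shape transcript forms were listed too. Of 59 measured SR proteins, hnRNPs and other splicing regulators, 3 were higher and 2 were lower, with a median log2 change of 0.05. In that count Srsf1, Srsf2 and Srsf10 were not called (0.14, 0.06 and 0.34). However, 2 other probe sets of Srsf2 (0.79 and 0.723) and 2 of Srsf10 (0.567 and 0.507) were called higher. A further Srsf1 probe set was called lower (-0.54, limma adjusted p = 0.0236). Hnrnpll, a regulator of alternative splicing first studied in T cells, was at 11.83, 11.16 and 11.16 with progesterone, against 10.06, 9.88 and 10.09 with oil, a log2 change of 1.37 ± 0.188 (SE, limma adjusted p = 0.00747) that was called in all 6 fits without 1 array. Its other probe set was called higher as well (1.41). Hnrnpab (0.62, adjusted p = 0.0245, called in 1 of 6 fits without 1 array) and Syncrip (0.61, adjusted p = 0.0139, called in 4) were higher. Of the 6 other Hnrnpab probe sets, 3 were called higher and 0 lower, with log2 changes from -0.27 to 0.6. All 4 other Syncrip probe sets were called higher. The splicing kinase Clk1 (-0.74, adjusted p = 0.0119, lost without oil replicate 1) and Ptbp2, a repressor of exons (-0.52, adjusted p = 0.0402, called in 1), were lower. The other Ptbp2 probe set was not called (-0.24). By the probe set that stood for the gene, 0 of 21 cleavage and polyadenylation genes were called in limma. At an unadjusted p under 0.05, 2 were higher and 1 was lower. The largest change was that of Cpsf2 (0.62, adjusted p = 0.0578). Another 2 Cpsf2 probe sets were called higher (0.61 and 0.497). Whether these genes act on the transcripts of Pnkd, Rmdn1 or Numa1 was not tested.

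The genes whose pattern over the 6 arrays was most like that of a called probe set were found by Pearson's r. The 3 highest for each of the 7 probe sets had r between 0.995 and 0.999, over 6 points of which 3 lie apart from the other 3. For Pnkd 1418746_at they were Sfxn2, Vps37a and Rmdn2, the relative of Rmdn1 (r = 0.997), all lowest in each group on replicate 3. For Pnkd 1451399_at they were Slc4a9, Maf1 and Cep57. For Rmdn1 1457999_at they were Spon1, Lyar and Usp10, and for 1438034_at Smad5, Palm and Tacr3. For Numa1 1423975_s_at they were Garem1, Mkrn1 and Foxo3, and for its partner 1423974_at Il20rb, Slc25a23 and Arhgap17. For the higher Numa1 probe set 1441090_at they were Sesn2, Dennd4a and Foxn2.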

How the data were processed

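RNA of 6 uterine samples was measured on 1-colour Affymetrix arrays with biotinylated cRNA, per the labels' protocols. The authors deposited log2 values for 45101 probe sets. RMA and Partek 6.6 are named per the submitters' processing notes; the settings are not given in the sources used here. All values were used as deposited. Control probe sets, 64 in number, were left out of the tests, and the remaining 45037 were each fitted with limma 3.58.1 in R 4.3.3 (progesterone minus oil, lmFit and eBayes, unfiltered and unblocked). P-values were two-sided and adjusted by Benjamini-Hochberg across the array, with a threshold of 0.05. Gene names came from the platform annotation: 34945 probe sets had 1 symbol, 932 several and 9160 none here. Sequences, transcripts and neighbours came from RefSeq (GRCm38.p6), where the 3 genes matched by gene ID and 2 had a promoter.

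Groups and replicate numbers came from the sample titles. Same-numbered arrays deviated together (correlations of 0.427, 0.151 and 0.515 over probe sets), so by the rule used here, all above 0.1, the numbers may pair the samples, as a hint from the data. The hint is weak for replicate 2, since progesterone replicate 1 correlated with oil replicate 2 at 0.188. The other pairs with unlike numbers lay between -0.482 and -0.0424. For the probe sets of the members, the blocked adjusted p is given where the block changes a call. For other genes only the blocked counts and the names of genes called in both directions are given. The number of arrays limits the precision, and depth has no meaning here. The procedure was tested on simulated data. Members, lists, named genes and alternatives were chosen with earlier results of these data known. Genes were named by a rule: the members, their neighbours, the 3 most alike for each called probe set, the genes next to the threshold, and the called members, or the one with the largest change, of each list. Gpsm2, Hagh and the uncalled markers named in the text (S100a8, Mki67, Top2a, Krt18, Elf3, Adipoq, Fabp4, Vim, Dcn, Pdgfra, Alb, Apoa1, Apoa2, Fgb) fall outside the rule and were chosen after their values were seen. The same holds for Srsf2, Srsf10 and Map1lc3b. Alternatives were quantile normalization, median centring, an offset of 32, leaving out the lowest 25% or 50% of probe sets, probe sets with 1 symbol only, trended and robust or unmoderated variance, the replicate block, each array left out, both arrays numbered 3 left out, an adjusted p of 0.01, at least 1.5-fold, and, for the lists, averaging each gene's probe sets or fitting 1 probe set a gene.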

Additional observations from a re-analysis of the deposited data

How the results depend on the processing

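With all arrays, 1808 probe sets were higher and 1692 lower, 3 genes were called in both directions, and 12 list members were higher and 6 lower. Quantile normalization, median centring, leaving out the lowest 25% and testing only probe sets with 1 symbol each gave the same 3 genes. An offset of 32 gave 2 genes, without Pnkd, and the distance of Numa1 then shifted by 0.863. Leaving out the lowest 50% gave 4 (Pnkd, Rmdn1, Dcun1d5 and Srsf1), and the trended and robust fit gave 3 (Pnkd, Rmdn1 and Srsf1). The replicate block gave 6 (Pnkd, Rmdn1, Cklf, Dcun1d5, Psmd13 and Srsf1), with 2639 probe sets lower and 14 list members lower; of the member probe sets it changed the call of Numa1 1441090_at only. The unmoderated linear model called 110 probe sets higher and 68 lower, 0 genes in both directions (44 at an unadjusted p under 0.05) and 0 and 0 list members. At an adjusted p under 0.01 limma called 473 and 340 probe sets, 0 genes in both directions (42 at an unadjusted p under 0.05) and 4 and 0 list members. With at least 1.5-fold, 0 genes were called in both directions (42 at an unadjusted p under 0.05 in limma) and 3 list members were lower. Without any 1 array there were 586 to 1301 higher and 470 to 1257 lower probe sets, 0 to 1 genes in both directions (17 to 49 at an unadjusted p under 0.05), 5 to 9 list members higher and 1 to 6 lower. Without both arrays numbered 3 there were 953 and 659 probe sets, 0 genes in both directions (38 at an unadjusted p under 0.05) and 7 and 1 list members. Lower list members numbered 10 after quantile normalization, 11 with the offset, 13 without the lowest 50%, 12 in the trended and robust fit and 11 in the fit over 1 probe set a gene. None of the 7 called member probe sets changed sign under these settings. Of the 4 uncalled ones, all of Rmdn1, 3 did: 1452300_at (-0.06 with all arrays, 0.22 without oil replicate 1), 1460155_at (-0.06, and 0.025 without oil replicate 3) and 1457017_at (-0.09, and 0.025 without both arrays numbered 3). With the offset the change of Numa1 1441090_at was 0.19, against 0.42 without it. Arrays left out lower the number of samples, and other causes were not tested.

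Probe sequences were not used here, so transcript forms could not be assigned to probe sets. Low signal limits 1441090_at of Numa1 and 3 probe sets of Rmdn1.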
